A study of Mus musculus with 4 samples.

Results

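The 10 genes described here encode proteases, a protease inhibitor, a secreted growth factor subunit and matrix proteins that macrophages and neutrophils release into tissue. They are Mmp12, Mmp13, Mmp14, Mmp8, Mmp9, Inhba, Thbs1, Serpinb2, Fn1 and Spp1, taken by name from the 31053 genes in the files. Several were selected on their lower UMI counts in macrophages of 1 of the 2 libraries, seen earlier in these data, so the differences between the libraries are a description and support nothing. All 10 had at least 20 UMIs (unique molecular identifiers, each counting 1 captured RNA molecule) in monocytes and macrophages and were measured there.

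The cells were CD45-sorted leukocytes. They came from tumours of B16, a transplantable melanoma line of the C57BL/6 background, taken 12 days after implantation into the right flank of male mice. The hosts were wild-type mice (WT) or mice labelled as knock-out (KO) for ATPIF1, a protein that inhibits ATP hydrolysis by the ATP synthase of mitochondria, and both groups carried the same tumour line with no treatment named in the labels. The allele, its deleted part and the cell types it acts in are not described in the sources used here. Cells from several mice were pooled for each genotype, the number of mice is given as 6 without saying whether per genotype, and 1 droplet-based 5′ RNA library was made from each pool. With 1 library per genotype there is no replicate, no difference has a test, and each interval in parentheses is a 95% interval for counting error only.

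Matrix metalloproteinases (MMPs) are zinc proteases that cleave matrix proteins and other secreted proteins. Plasmin, which dissolves fibrin, is made from plasminogen by urokinase (Plau) and tissue activator (Plat), and is held back by inhibitors of those activators, among them Serpinb2. In tumours, macrophages and neutrophils are known sources of these proteases, and fibronectin, thrombospondin and osteopontin made by macrophages bind integrins and CD44 on neighbouring cells.

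The WT library held 35152477 UMIs and the library labelled KO 24385843, of which 4370 and 3211 barcodes passed as cells, and 29 barcode sequences were cells in both. In monocytes and macrophages Atpif1 stood at 669 CPM in WT and 735 CPM in the library labelled KO, where CPM is a gene's UMIs over all UMIs of the class, scaled to counts per 1000000. Reads at the 5′ end need not fall in the deleted stretch, so this level does not check the allele, and each direction below rests on the label. Neutrophils numbered 429 cells in WT and 12 in the library labelled KO. Markers of other cells were also uneven inside monocytes and macrophages. All 5 neutrophil markers were detected in both libraries and summed to 264 CPM in WT and 73.6 CPM in the library labelled KO, all 5 melanoma markers to 106 and 16.6 CPM, and the platelet markers to 94.8 CPM (5 of 5 detected) and 22.1 CPM (4 of 5). Fibroblast markers summed to 1.5 and 1.8 CPM with Pdgfra at 0, and mast cell or basophil and keratinocyte markers were at 0 in both. The part of these cells in the differences below was not tested.

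Monocytes and macrophages were divided by marker UMIs into 7 gates, none of which used a described gene. Csf1r, a receptor that defines the lineage, stood at 307 CPM in this class in both libraries, and the T cell marker Cd3e stood at 0.78 and 2.54 CPM. The largest gate was the C1q-high macrophages (635 and 572 cells), whose C1qa stood at 2383 and 1883 CPM. Arg1 C1q-low macrophages (268 and 146 cells) held arginase 1 RNA at 4827 and 4653 CPM and C1qa at 58 and 53 CPM. Smaller gates were Ear2 Mgl2 macrophages (35 and 50 cells), Ccl8 Cbr2 macrophages (157 and 74), interferon-high Ly6c2 monocytes (16 and 43) and interferon-low Ly6c2 monocytes (126 and 88). The remaining C1q-low cells (362 and 234) also held Cd209a, a dendritic cell marker, at 220 and 404 CPM. A further set of Arg1 cells lay outside all gates (105 and 59 cells) and was formed after its values had been seen. It held Lyz2 at 946 and 4454 CPM, against 9923 and 10396 CPM in the Arg1 gate, and it is given no cell type name.

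Mmp12, Mmp13 and Mmp8 lie in a cluster of 10 MMP genes on chromosome 9 that spans 427 kb (GRCm38). The cluster runs from Mmp13 (chr9:7272514-7283333) through Mmp12 (chr9:7344397-7360461) to Mmp8 (chr9:7558429-7568486) and beyond to Mmp7. Of the other cluster genes, Mmp27 had 56 UMIs in WT and 6 in the library labelled KO over all monocytes and macrophages, Mmp10 had 24 and 0, Mmp20 had 0 and 1, and Mmp1b, Mmp3 and Mmp7 had none in either. Mmp1a was not analysed here. Relative to the 14046979 and 8271414 UMIs of the class, all 5 cluster genes with at least 20 UMIs were at least 1.5-fold lower in the library labelled KO. Of all genes measured in the class 7.67% were lower by this rule. Mmp12, Mmp13 and Mmp8 belong to the genes listed with such differences in view, and Mmp27 and Mmp10 rest on few UMIs, so nothing is read from this count. The other described genes lie apart, at chr14:54431598-54442456 (Mmp14), chr2:164940326-164955850 (Mmp9), chr13:16004256-16031609 (Inhba), chr2:118111876-118127133 (Thbs1), chr1:107500892-107525600 (Serpinb2), chr1:71585473-71653280 (Fn1) and chr5:104435111-104441053 (Spp1).

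The RefSeq promoter table of GRCm38.p6 held 7 of the 10 genes; Fn1, Thbs1 and Mmp9 had no entry. The 3 windows printed, 120 bases up to the annotated start and all on the plus strand, each held marked letters. They are a choice and not a ranking by difference: Inhba and Mmp8, which were also at least 1.5-fold lower in the library labelled KO, had windows that are not printed. The first annotated start of Mmp12 (chr9:7344277-7344396) held no marked letters and is not printed. Capitals mark TGACTCA on either strand, the letters of the AP-1 site, and TATAAA, the letters of the TATA box.
Mmp13 (chr9:7272394-7272513): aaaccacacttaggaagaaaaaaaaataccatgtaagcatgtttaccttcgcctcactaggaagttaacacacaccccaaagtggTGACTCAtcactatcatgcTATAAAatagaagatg
Mmp12, second annotated start (chr9:7347254-7347373): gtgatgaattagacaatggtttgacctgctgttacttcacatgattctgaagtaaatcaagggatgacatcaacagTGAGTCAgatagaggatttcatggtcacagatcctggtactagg
Serpinb2 (chr1:107511303-107511422): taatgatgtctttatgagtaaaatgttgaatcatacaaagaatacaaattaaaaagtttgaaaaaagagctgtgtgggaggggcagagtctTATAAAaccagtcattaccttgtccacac

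The AP-1 letters began 35 bases before the start of Mmp13 and 44 bases before the second start of Mmp12. Over windows from 250 bases before to 50 bases after a start, they occurred in 2 of the 7 genes and in 5.95% of all 27025 genes in the table. TATAAA occurred on either strand in 6 of the 7 genes, against 15.7% of all genes, with Mmp14 as the exception. It began 29 bases before the first start of Serpinb2 and 16 before the start of Mmp13. In Inhba it began 91 bases before the start, in Spp1 211 and in Mmp8 3, there on the other strand. In Mmp12 it began 4 bases after the second start. The distances thus differed widely, and whether these letters act as a TATA box was not tested. ACGTG, the core letters bound by hypoxia-inducible factors, occurred in the window of Mmp14 alone among the 7, against 21.8% of all genes. The 3 sets of letters share no overlapping match in the printed stretches. A match describes these letters and not binding.

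Over all monocytes and macrophages, 6 of the 10 genes were at least 1.5-fold lower in the library labelled KO and none was at least 1.5-fold higher. These 6 were Mmp12, Mmp13, Mmp8, Mmp9, Inhba and Serpinb2. The other 4, Mmp14, Thbs1, Fn1 and Spp1, differed by less than 1.5-fold. Among the 11195 genes measured in the class, 7.67% were at least 1.5-fold lower and 6.31% at least 1.5-fold higher. The median log2 ratio (library labelled KO to WT) was -1.39 over the 10 genes and -0.01 over all genes measured. Since the genes were listed with such differences in view, nothing is read from this count. For the Arg1 gate, 5 of the 9 measured genes were lower by this rule and none higher, beside 10.1% of genes lower and 14.5% higher. In the C1q-high gate 6 of 10 were lower and none higher, beside 7.28% and 7.1%. In that gate Mmp8 (13.01 CPM), Mmp9 (5.24 CPM), Inhba (7.94 CPM) and Serpinb2 (4.56 CPM) lay below the levels of WT empty droplets in WT, and Mmp12, Mmp13 and Inhba were within 1.5-fold at a C1q limit of 0.4%.

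**Figure D1:**
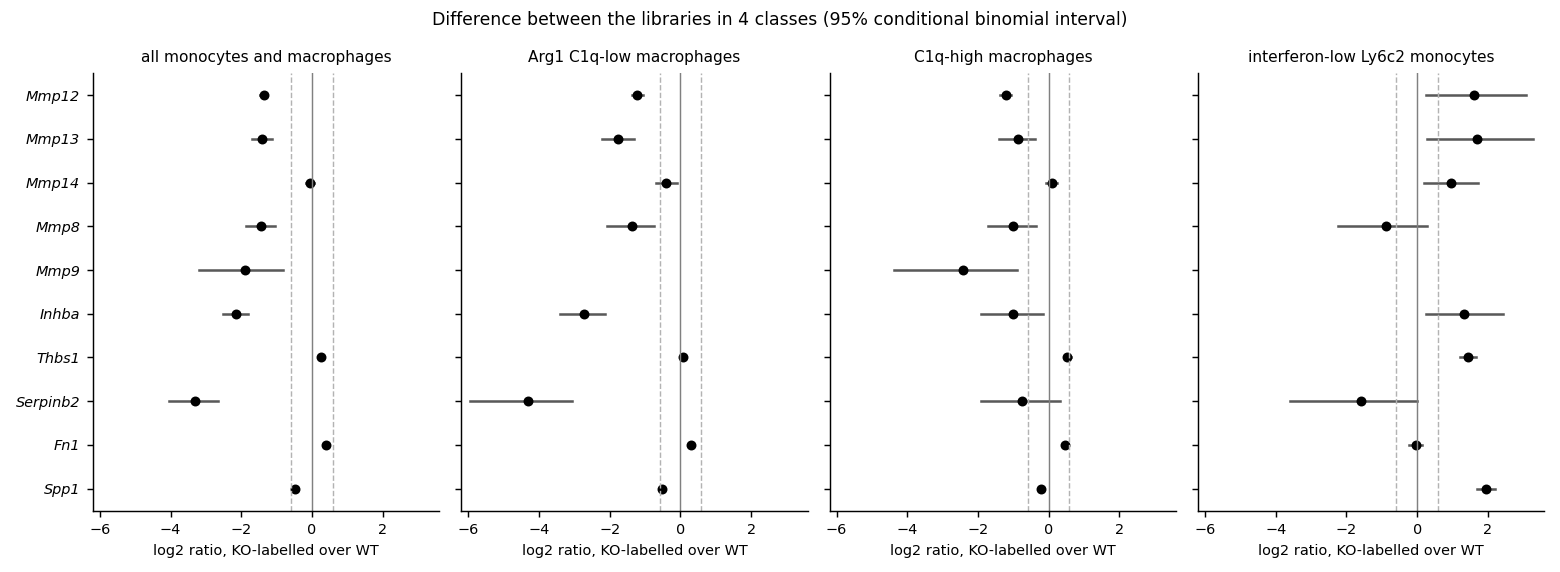
Log2 ratio, library labelled KO to WT (x axis), for each gene (rows) in 4 classes, with 95% conditional binomial intervals for counting error; dashed lines mark 1.5-fold, and genes with under 20 UMIs in a class or with 0 UMIs in 1 library are not drawn. In the Arg1 C1q-low gate Serpinb2 (-4.30) and Inhba (-2.74) lie far to the left while Thbs1 (0.077) and Fn1 (0.30) lie near 0, and in the interferon-low monocytes Spp1 (1.94) and Thbs1 (1.44) lie to the right.

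Mmp12, the macrophage metalloelastase, was at 341 CPM (331 to 350; 4785 UMIs) in WT monocytes and macrophages and at 132 CPM (125 to 140; 1094 UMIs) in those of the library labelled KO, giving log2 -1.36 (-1.46 to -1.27). In the Arg1 gate it was at 1134 CPM (1089 to 1181) in WT against 487 CPM (442 to 535) in the library labelled KO, giving log2 -1.22 (-1.37 to -1.07). The C1q-high gate gave 245 CPM (233 to 258) and 106 CPM (95.8 to 116). Mmp12 was thus lower in the library labelled KO in both gates. In the C1q-high gate this depended on the gate's limit: with C1q at 0.4% of UMIs or more in place of 0.2% the log2 ratio was -0.14 for Mmp12, -0.18 for Mmp13 and -0.026 for Inhba. Of the WT gates its highest level was in the Ear2 Mgl2 gate, at 1191 CPM, which overlapped the interval of the Arg1 gate. There it stood at 308 CPM in the library labelled KO. Few cells made up these sums: 1 WT cell held 492 of the 688 Mmp12 UMIs of the Ear2 Mgl2 gate, and without the highest cell of each library the gate gave 365 and 99.9 CPM. Only 239 of 1599 WT monocytes and macrophages and 114 of 1207 in the library labelled KO had any Mmp12 UMI. The Ccl8 Cbr2 gate gave 85.5 CPM in WT (176 UMIs) and 10.8 CPM in the library labelled KO (7 UMIs, all in 1 cell). Melanoma markers in that gate summed to 312 CPM in WT (5 of 5 detected) and 9.3 CPM in the library labelled KO (4 of 5), and their part was not tested. Empty droplets, barcodes with 10 to 100 UMIs that sample free RNA, held Mmp12 at 142 CPM in WT and 74.0 CPM in the library labelled KO, above the levels of the Ccl8 Cbr2 gate in both libraries.

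Mmp13, a collagenase, was at 42.4 CPM (39.1 to 46.0; 596 UMIs) in WT monocytes and macrophages against 15.8 CPM (13.2 to 18.8; 131 UMIs) in the KO-labelled library, giving log2 -1.42 (-1.71 to -1.15). The Arg1 gate held it at 185 CPM (167 to 205) in WT against 55.0 CPM (40.5 to 72.9) in the library labelled KO. It held 52.2% of all Mmp13 UMIs in WT cells while making up 6.13% of the cells. Without the cell with the most Mmp13 UMIs in each library the Arg1 gate gave 141 and 48.5 CPM, still with WT above. With gates set on cells thinned to 2000 UMIs, the log2 ratio over all monocytes and macrophages was -0.78. In every other monocyte or macrophage gate of WT, Mmp13 lay at or below 26.2 CPM, against 19.5 CPM in empty droplets.

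Mmp8 is the neutrophil collagenase. In WT its level was 68.4 CPM (57.6 to 80.7) in the Arg1 gate and 66.7 CPM (51.2 to 85.3) in neutrophils, and the intervals overlap. In the library labelled KO the Arg1 gate gave 26.3 CPM (16.7 to 39.5; 23 UMIs), a log2 ratio of -1.38 (-2.08 to -0.74). Neutrophil markers in the Arg1 gate summed to 265 CPM in WT (5 of 5 detected) and 44.7 CPM in the library labelled KO (4 of 5), against 71499 CPM in WT neutrophils, and their part in the Mmp8 level was not tested. Over all monocytes and macrophages Mmp8 was at 21.5 and 7.86 CPM, close to the 20.05 and 6.53 CPM of empty droplets.

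Mmp9, gelatinase B, was highest in neutrophils. It stood at 301 CPM (267 to 338; 284 UMIs) in WT neutrophils, and 71.4% of its UMIs in WT cells lay there. The 12 neutrophils of the library labelled KO held 3 UMIs, or 147 CPM (30.3 to 429), whose interval overlaps that of WT. Monocytes and macrophages held Mmp9 at 3.63 CPM in WT and 0.97 CPM in the library labelled KO (51 and 8 UMIs), below the 12.9 and 9.02 CPM of empty droplets. Over all cells together Mmp9 was at 14.3 CPM in WT and 1.81 CPM in the library labelled KO, beside the 429 and 12 neutrophils.

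Mmp14, the membrane-bound MMP that activates other MMPs at the cell surface, differed little. It was at 117 CPM (112 to 123) in WT monocytes and macrophages against 113 CPM (106 to 121) in those of the library labelled KO. The Arg1 gate gave 194 CPM (175 to 214) and 147 CPM (122 to 174), and the C1q-high gate 133 CPM (124 to 143) and 141 CPM (130 to 153). The C1q-high gate held 34.3% of its UMIs in WT cells, and the melanoma cells left in the sort held 7.53%. No monocyte or macrophage held more than 13 of its UMIs in either library.

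**Figure D2:**
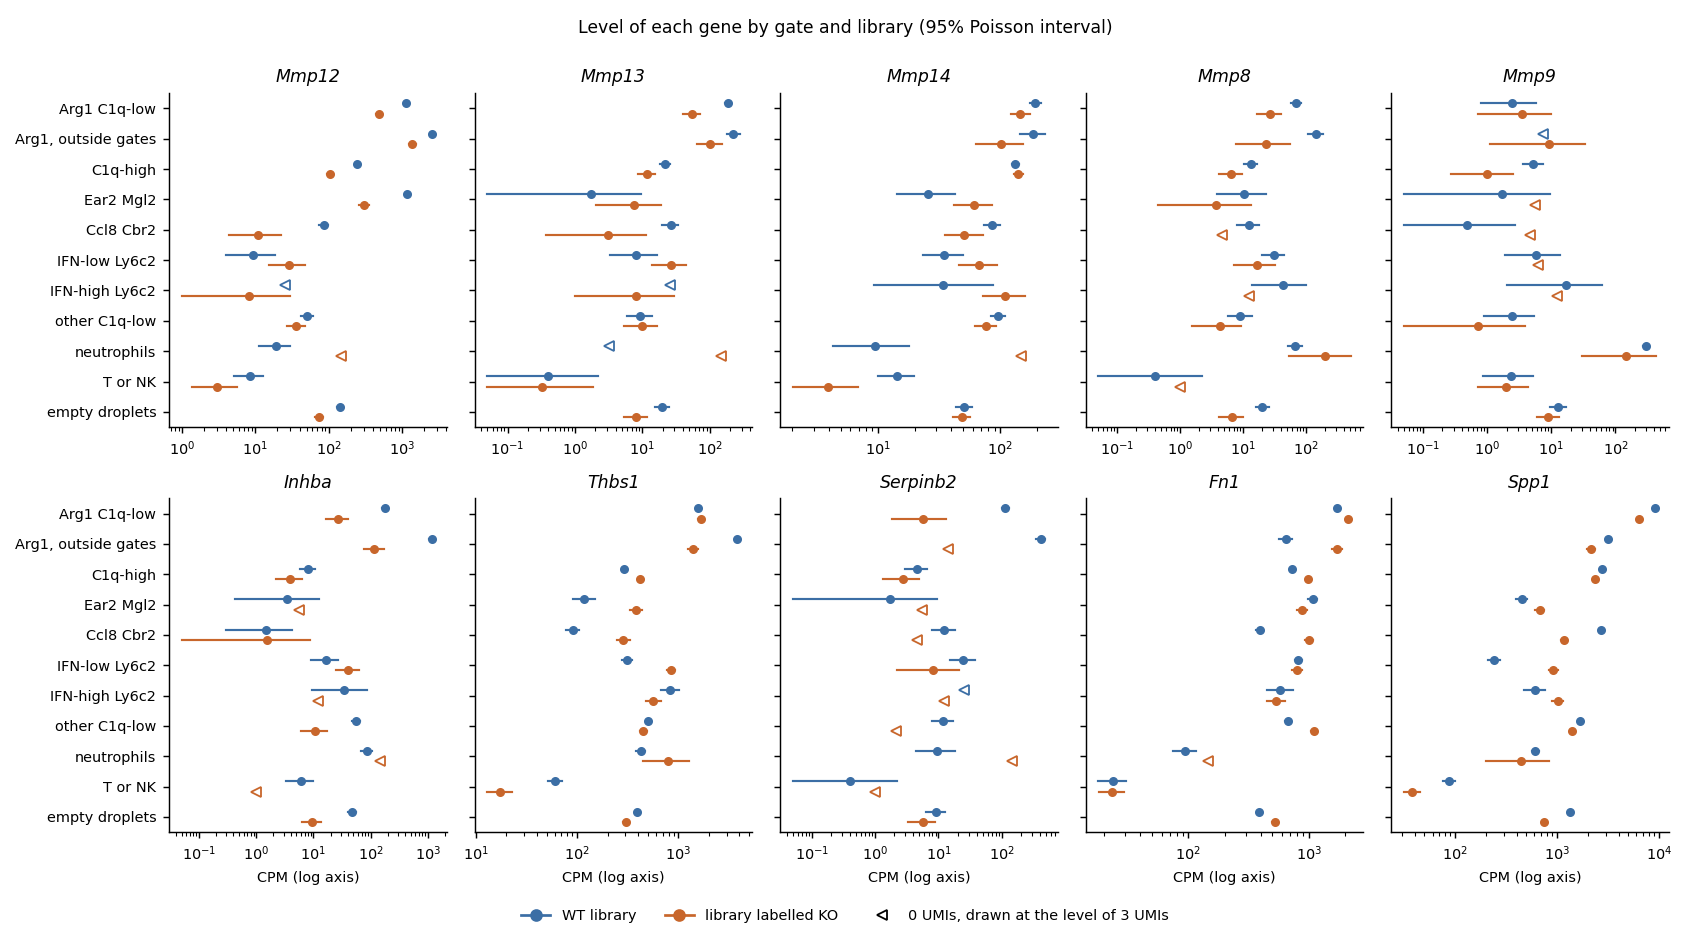
Level of each gene in CPM (log x axis) in 11 classes (rows) of the WT library (blue) and the library labelled KO (orange), with 95% Poisson intervals, drawn no lower than 0.05 CPM; open triangles stand at the level of 3 UMIs where a class had 0. T or NK cells and empty droplets are the background. In WT, Mmp13, Inhba and Serpinb2 are highest in the Arg1 classes in and outside the gates, where they are lower in the library labelled KO, and Mmp9 is highest in neutrophils (301 CPM in WT).

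Serpinb2, an inhibitor of the urokinase and tissue plasminogen activators known as PAI-2, differed most of the 10 genes over the whole class. It stood at 23.9 CPM (21.4 to 26.6; 336 UMIs) in WT monocytes and macrophages against 2.42 CPM (1.48 to 3.73; 20 UMIs) in those of the library labelled KO, giving log2 -3.31 (-4.04 to -2.66). In the Arg1 gate it was at 113 CPM (99.1 to 129; 233 UMIs) in WT against 5.73 CPM (1.86 to 13.4; 5 UMIs) in the KO-labelled library, giving log2 -4.30 (-5.94 to -3.06). The interval of the second value includes the level of empty droplets of that library (5.60 CPM), whereas in WT the Arg1 gate lay far above the 9.06 CPM of empty droplets. Among the Arg1 cells outside the gates Serpinb2 had 165 UMIs in WT (413 CPM) and 0 in the library labelled KO. With the floor of 3 UMIs in place of the 0 the level was 29.7-fold lower. The interval of the log2 ratio reached up to -4.58. In the C1q-high gate it was rare in both, with 27 and 11 UMIs, and 1 WT cell held 14 of the 27. The highest level in the other WT gates was 24.4 CPM in interferon-low monocytes. With gates set on cells thinned to 2000 UMIs, the log2 ratio over all monocytes and macrophages was -2.33.

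Of the 15 genes of the plasminogen system other than Serpinb2, 13 were measured in monocytes and macrophages, with a median log2 ratio of -0.10. Of these 13, 4 were at least 1.5-fold lower in the library labelled KO and none higher, beside 7.67% and 6.31% of all genes measured. The 4 were Plat, with 28 and 8 UMIs, Procr, the endothelial protein C receptor (8.12 and 4.72 CPM), Serpinb6a (113 and 64.4 CPM) and Serpinf2, the plasmin inhibitor, which had 20 and 7 UMIs and is named after its value was seen. The activator Plau was at 46.6 and 44.6 CPM and its receptor Plaur at 272 and 255 CPM, with log2 ratios of -0.06 and -0.09. Serpinb2 thus differed between the libraries while this activator and its receptor were at nearly equal levels. The plasminogen receptors differed in direction: Plgrkt was at 80.6 and 111 CPM and S100a10 at 1108 and 1355 CPM, and its partner Anxa2 at 1078 and 969 CPM, all within 1.5-fold.

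Inhba, the beta A subunit that forms activin A, was at 40.4 CPM (37.2 to 43.9; 568 UMIs) in WT monocytes and macrophages against 9.07 CPM (7.13 to 11.4; 75 UMIs) in those of the library labelled KO, giving log2 -2.16 (-2.52 to -1.81). In the Arg1 gate it was at 176 CPM (158 to 195) in WT against 26.3 CPM (16.7 to 39.5) in the library labelled KO, giving log2 -2.74 (-3.41 to -2.13). In the library labelled KO 1 cell held 11 of the 23 UMIs, and without the highest cell of each library the ratio was -3.50. The C1q-low cells outside the named gates gave 55.4 and 10.6 CPM. WT neutrophils held Inhba at 84.7 CPM (67.2 to 105), above the 47.0 CPM of WT empty droplets. The 12 neutrophils of the library labelled KO had no UMI, with an interval that reached 181 CPM. Migratory dendritic cells held it at 58.0 CPM in WT and 21.9 CPM in the library labelled KO. Empty droplets of the library labelled KO held Inhba at 9.33 CPM, so over all monocytes and macrophages its level lay below that of empty droplets in both libraries.

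Of 26 genes of the activin and TGF-beta pathway 18 were measured (median log2 ratio -0.15). None was 1.5-fold lower or higher, beside 7.67% and 6.31% of all genes measured. The type I receptor Acvr1b was at 8.40 and 9.19 CPM and the type II receptor Acvr2a at 5.13 and 6.29 CPM. The activin antagonist follistatin, Fst, had 2 and 0 UMIs. Tgfb1 was at 339 and 265 CPM, its receptor Tgfbr1 at 41.5 and 33.4 CPM, the repressor Tgif1 at 108 and 77.1 CPM, and the pseudoreceptor Bambi at 23.2 and 30.4 CPM. In single gates the list's counts differed in direction. In the Arg1 gate 2 of 11 measured genes were lower and none higher, beside 10.1% and 14.5% of all genes. In the Arg1 cells outside the gates 5 of 7 were lower and none higher, beside 22.7% and 25%. The Ear2 Mgl2 gate had none of 7 lower and 3 higher (12.2% and 14.5%). Interferon-low monocytes had none of 10 lower and 3 higher (14.8% and 14.7%). The Ccl8 Cbr2 gate had 1 of 12 lower and 2 higher (16.6% and 11.7%), and the C1q-high gate none of 16 lower and 1 higher (7.28% and 7.1%). The remaining C1q-low cells had 2 of 15 lower and none higher (9.91% and 9.18%).

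The matrix proteins were Fn1, Thbs1 and Spp1. Fn1, fibronectin, was at 831 CPM (816 to 846) in WT monocytes and macrophages against 1097 CPM (1074 to 1120) in those of the library labelled KO, giving log2 0.40 (0.36 to 0.44). The Arg1 gate gave 1728 and 2129 CPM, the C1q-high gate 723 and 986 CPM, and the Ccl8 Cbr2 gate 391 and 1011 CPM. The interferon-low monocytes stood at 823 and 799 CPM, with overlapping intervals, and the Ear2 Mgl2 gate at 1078 and 881 CPM. Fn1 was thus higher in the library labelled KO in the Arg1 and C1q-high gates, by under 1.5-fold, and by more than that in the Ccl8 Cbr2 gate and in the C1q-low cells outside the named gates (667 and 1101 CPM). Empty droplets held it at 390 and 522 CPM, a difference of the same direction.

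Thbs1, thrombospondin 1, was at 485 CPM (473 to 496) in WT monocytes and macrophages against 572 CPM (556 to 588) in those of the library labelled KO. Of the gates, the Arg1 gate held the highest level in both libraries, 1572 CPM (1518 to 1627) in WT against 1658 CPM (1574 to 1746) in the library labelled KO, giving log2 0.077 (-0.01 to 0.17). In the Ear2 Mgl2 gate it was at 118 and 380 CPM and in the Ccl8 Cbr2 gate at 90.9 and 285 CPM. Empty droplets held Thbs1 at 390 and 304 CPM, so of these 4 values only the 380 CPM lay above them. In the Ear2 Mgl2 gate 1 cell of the library labelled KO held 98 of its 205 Thbs1 UMIs. Without the highest cell of each library that gate gave 67.4 and 204 CPM. Among the Arg1 cells outside the gates the direction was opposite, with 3815 CPM (3626 to 4011) in WT against 1384 CPM (1232 to 1551) in the library labelled KO. Platelet markers in this set summed to 153 CPM in WT (2 of 5 detected) and 0 in the library labelled KO, and neutrophil markers to 180 CPM (4 of 5) and 37.0 CPM (3 of 5), and their part was not tested. With all ungated cells, which lie outside the class, added to the monocytes and macrophages the log2 ratio went from 0.24 to -0.076. The sign was kept with only the Arg1 cells outside the gates added, and changed when the other ungated cells were added too.

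Spp1, osteopontin, was at 3227 CPM (3197 to 3257) in WT monocytes and macrophages against 2287 CPM (2255 to 2320) in those of the library labelled KO, giving log2 -0.50 (-0.52 to -0.47). Its order over the gates was led by the Arg1 gate in both libraries, at 9201 CPM (9070 to 9333) and 6374 CPM (6208 to 6544). The C1q-high gate followed with 2740 and 2353 CPM. The Ccl8 Cbr2 gate was at 2676 CPM in WT, where its interval overlapped that of the C1q-high gate, and at 1176 CPM in the library labelled KO. Migratory dendritic cells held 319 Spp1 UMIs in WT and 6 in the library labelled KO, at 250 and 10.1 CPM. Empty droplets held 1329 and 745 CPM and T or NK cells 87.7 and 38.0 CPM, so the free RNA of Spp1 was also lower in the library labelled KO.

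The matrix protein list besides the described genes had 8 of 23 genes measured, with a median log2 ratio of -0.18. Of the 8, 2 were lower and none higher, beside 7.67% and 6.31% of all genes measured. The 2 were Sparc, an adhesion-modulating protein with 57 and 8 UMIs, and Gpnmb, a transmembrane glycoprotein at 142 and 86.6 CPM. Tgfbi was at 912 and 1056 CPM and Lgals3, galectin 3, at 4055 and 3252 CPM. Of 26 matrix receptors 23 were measured, none lower and 2 higher (7.67% and 6.31% of all genes), with a median of 0.04. Cd44, a receptor of osteopontin and hyaluronan, was at 310 and 322 CPM, the integrin subunit Itgav at 41.5 and 35.2 CPM, Itgb5 at 85.0 and 65.9 CPM, and Itgb3 had 14 and 7 UMIs. The 2 higher receptors were Itgax (38.7 and 64.2 CPM) and the syndecan Sdc3 (216 and 348 CPM). Itgam, the integrin subunit of myeloid cells, was at 168 and 244 CPM.

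Of the 18 MMP genes besides the 5 described, 4 were measured in monocytes and macrophages, 2 lower and 2 higher. The lower ones were Mmp27 and Mmp10 of the chromosome 9 cluster. The higher ones were Mmp19, at 38.5 CPM in WT and 80.3 CPM in the library labelled KO, and Mmp25, a membrane-anchored MMP with 10 and 24 UMIs. Mmp10 and Mmp25 are named after their values were seen. Of 12 ADAM and ADAMTS proteases 6 were measured and none differed by 1.5-fold. Adam8 was at 349 and 278 CPM, and Adam10 at 41.4 and 50.5 CPM. Among 10 inhibitors and activators of metalloproteinases 6 were measured, with 1 lower. This was Lcn2, which binds MMP9, with 34 and 8 UMIs. The tissue inhibitor Timp1 was at 50.7 and 52.7 CPM, Timp2 at 175 and 162 CPM, Furin, a protease that activates MMP14, at 105 and 101 CPM, the MMP inducer Bsg at 352 and 287 CPM, and the protease inhibitor Cst3 at 1836 and 2284 CPM. The proteases that were low in the library labelled KO thus stood beside nearly equal levels of Timp1 and Timp2. Of 12 coagulation and transglutaminase genes 9 were measured, with 2 lower and 1 higher. Tissue factor, F3, had 82 and 22 UMIs, Tgm1 87 and 33, and Fgl2, a membrane-bound prothrombinase, was at 39.0 and 88.4 CPM. Factor XIII subunit F13a1 was at 434 and 304 CPM, F7 at 37.3 and 51.5 CPM and F10 at 143 and 162 CPM. Over all 142 listed genes, 87 were measured, 11 lower and 5 higher, with a median of -0.10. The counts of this paragraph stand beside 7.67% lower and 6.31% higher of all genes measured in the class.

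To give shares of cells at equal depth, each cell was thinned to 1000 UMIs, which all cells reached. Such a share does not tell fewer cells with an RNA from less RNA per cell. In the Arg1 gate 9.33% of WT cells (6.13 to 13.5) and 1.37% of those of the library labelled KO (0.17 to 4.86) then had an Inhba UMI, beside 0.29% and 0% of T or NK cells. For Serpinb2 the shares were 7.09% (4.32 to 10.9) and 0.68% (0.02 to 3.76), beside 0% of T or NK cells in both. A floor of 3 cells is 0.44% of those 679 cells and 0.35% of those 862 cells. Mmp8 gave 9.33% and 2.05% (0.43 to 5.89), and for these 3 genes the intervals do not overlap, which compares the cells of these 2 libraries and not the genotypes. Mmp12 gave 17.2% (12.8 to 22.2) and 11.0% (6.40 to 17.2), and Mmp13 7.09% and 5.48%, with overlapping intervals. Without thinning, at median depths of 7011 and 5303 UMIs, the shares were 22.8% and 6.16% for Inhba, 11.9% and 2.05% for Serpinb2, 22.8% and 8.90% for Mmp8, 32.5% and 17.8% for Mmp12 and 20.5% and 12.3% for Mmp13. The T or NK cells had median depths of 2896 and 2446.5 UMIs. Thinned shares of Thbs1 (55.6% and 61.0%) and Fn1 (59.3% and 63.7%) had overlapping intervals, as did those of Spp1 at 75.4% (69.8 to 80.4) and 65.1% (56.7 to 72.8).

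**Figure D3:**
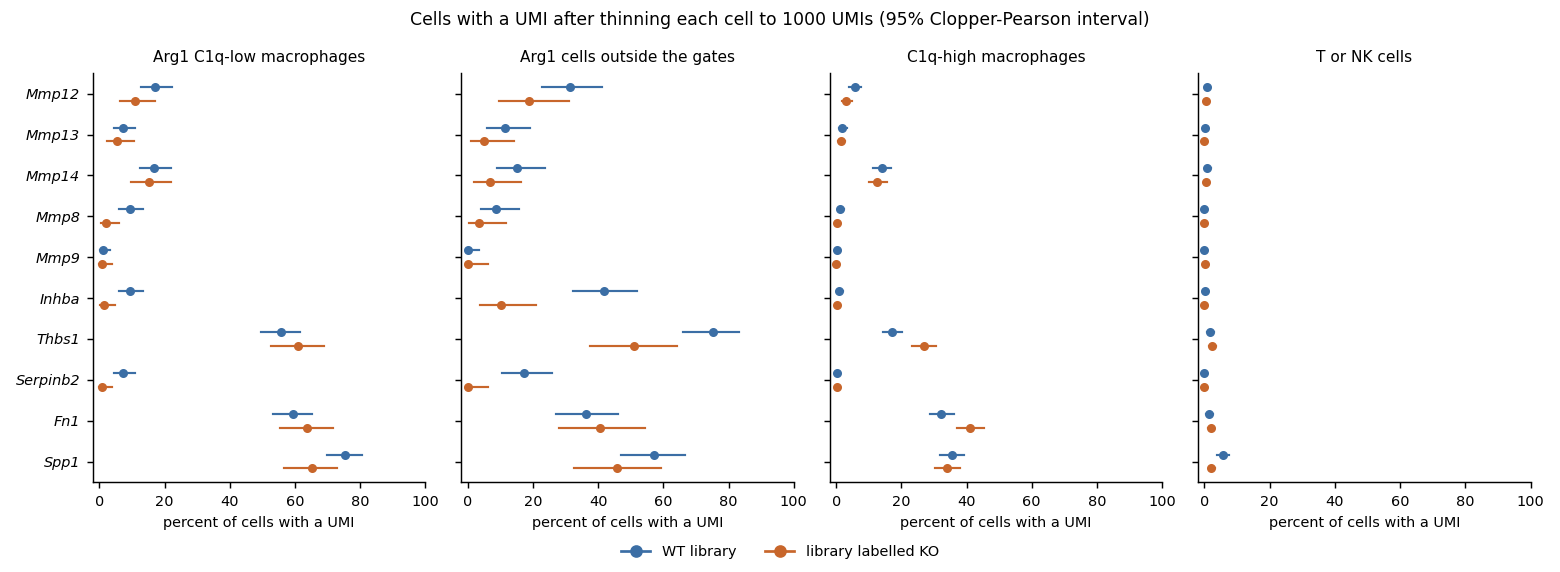
Percent of cells with at least 1 UMI of each gene (x axis) after thinning every cell to 1000 UMIs, in 4 classes, for WT (blue) and the library labelled KO (orange), with 95% Clopper-Pearson intervals. The intervals, which cover counting of cells in 1 library each, do not overlap for Inhba, Serpinb2 and Mmp8 in the Arg1 C1q-low gate and overlap for Thbs1 and Fn1, and in T or NK cells no gene exceeds the 5.60% of Spp1 in WT.

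Within the Arg1 gate, some pairs of genes were detected in the same cells at unequal shares. In WT 39 of the 55 cells with an Mmp13 UMI also had an Mmp12 UMI (70.9%), against 48 of the 213 cells without (22.5%), at median depths of 7274 and 6918 UMIs. Of the 61 WT cells with an Inhba UMI 20 had Serpinb2 (32.8%), against 12 of the 207 without (5.8%), at 6854 and 7032 UMIs. All 32 WT cells with Serpinb2 also had Thbs1, against 179 of 236 without (75.8%). Thbs1 was found at a lower share in cells with Mmp12: 64 of 87 cells with Mmp12 had Thbs1 (73.6%), against 147 of 181 without (81.2%). In the library labelled KO 8 of 18 cells with Mmp13 had Mmp12 (44.4%), against 18 of 128 without (14.1%), and none of the 3 cells with Serpinb2 was among the 9 with Inhba. These shares are descriptions over cells of 1 library each.

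Not all Arg1 cells met the gate, and the 105 WT cells and 59 cells of the library labelled KO outside it held the highest levels of several genes. Inhba stood there at 1163 CPM (1060 to 1274; 465 UMIs) in WT against 116 CPM (74.9 to 171; 25 UMIs) in the KO-labelled library, giving log2 -3.33 (-3.97 to -2.75). These cells held 32.4% of all Inhba UMIs in WT cells while being 2.40% of the cells. Mmp12 was at 2577 and 1389 CPM, but 1 cell held 212 of the 300 UMIs of the library labelled KO, and without the highest cell of each library the levels were 2015 and 416 CPM. Mmp8 was at 143 and 23.2 CPM and Mmp13 at 225 and 102 CPM. Fn1 was at 648 and 1722 CPM, and at 560 and 1052 CPM without the highest cell of each library. By the 1.5-fold rule 7 of 9 measured genes were lower and 1 was higher, beside 22.7% of genes lower and 25% higher. Of 3 genes known to be induced at low oxygen, picked by name with no list test, Egln3 was at 585 and 185 CPM, Hilpda at 1844 and 1023 CPM and Vegfa at 653 and 454 CPM in these cells, the last within 1.5-fold. Inside the gate Egln3 was at 265 and 164 CPM, Hilpda at 846 and 616 CPM and Vegfa at 285 and 297 CPM. The part of these differences in the levels of the described genes was not tested.

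**Figure D4:**
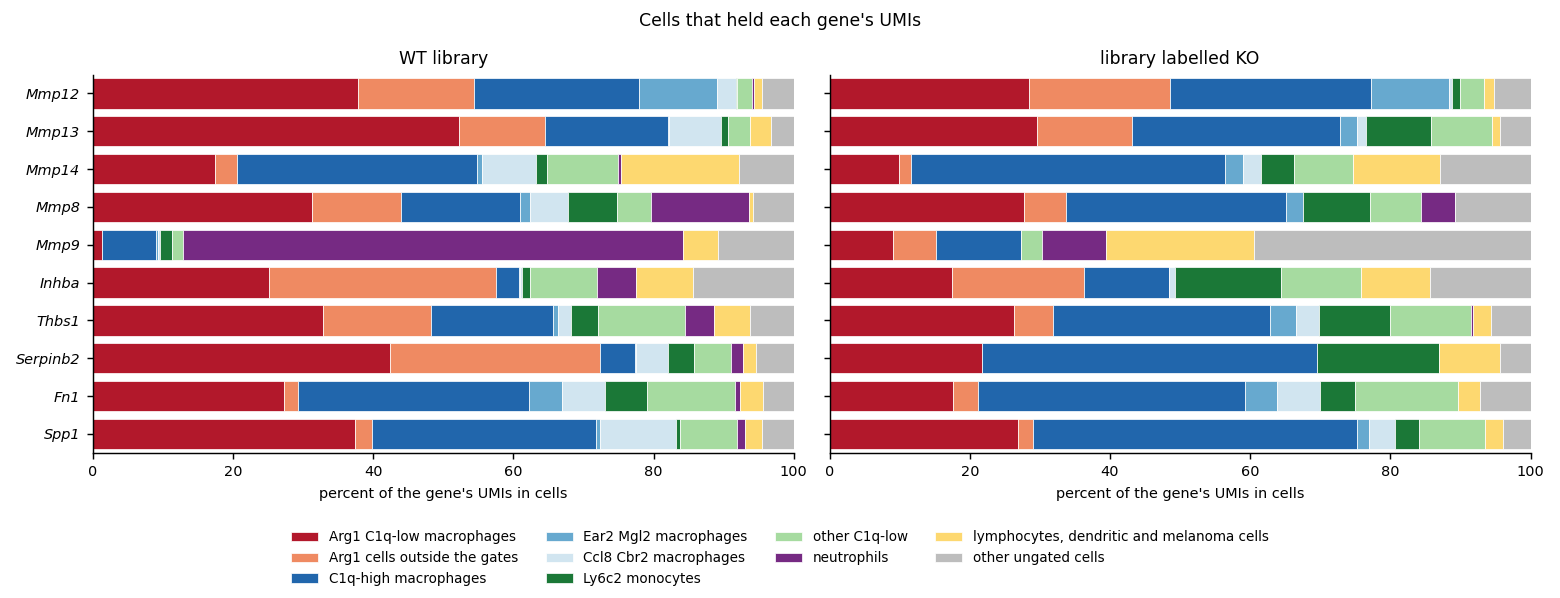
Percent of each gene's UMIs in cells (x axis, stacked to 100) that lay in each group of cells, for the WT library (left) and the library labelled KO (right). In WT the Arg1 classes in and outside the gates hold 233 and 165 of the 550 Serpinb2 UMIs and neutrophils hold 71.4% of Mmp9, while in the library labelled KO the Serpinb2 bar rests on 23 UMIs and the Mmp9 bar on 33.

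In interferon-low monocytes Spp1 was at 239 CPM in WT and 921 CPM in the library labelled KO, giving log2 1.94 (1.70 to 2.19), and without the highest cell of each library it was at 89.0 and 655 CPM. Thbs1 was at 311 and 846 CPM, a log2 ratio of 1.44 (1.22 to 1.67), beside 390 and 304 CPM in empty droplets. Inhba had 14 and 20 UMIs, at 16.3 and 40.7 CPM, beside 47.0 and 9.33 CPM in empty droplets. The highest cell held 5 of its 14 UMIs in WT and 10 of its 20 in the library labelled KO. Without these cells Inhba was at 10.5 and 20.6 CPM. Spp1, Thbs1, Inhba and Mmp14 (34.9 and 67.1 CPM) were higher in the library labelled KO in this gate. By contrast, Inhba, Spp1 and Mmp14 were lower in that library in the Arg1 gate, and the difference between the gates was not tested. The Mmp13 and Mmp12 values of this gate rest on single cells: 13 of 13 Mmp13 UMIs and 11 of 14 Mmp12 UMIs in the library labelled KO came from 1 cell each. Arg1 itself was at 29.1 CPM in WT interferon-low monocytes and 571 CPM in those of the library labelled KO, and Hilpda at 90.6 and 228 CPM. Melanoma markers summed to 579 CPM there in WT (5 of 5 detected) and 8.1 CPM in the library labelled KO (1 of 5). The part of Arg1-positive monocytes and of melanoma RNA in these values was not tested. By the 1.5-fold rule 6 of 9 measured genes were higher and 2 lower, beside 14.7% and 14.8% of genes. In the 16 and 43 interferon-high monocytes 4 genes were measured, with 2 higher and none lower, beside 19.4% and 13.4%.

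In the smaller macrophage gates the count was 6 lower and 2 higher of 8 in the Ccl8 Cbr2 gate (16.6% and 11.7% of genes) and 1 lower and 3 higher of 5 in the Ear2 Mgl2 gate (12.2% and 14.5%). Several of the 6 rest on little: in the Ccl8 Cbr2 gate 1 WT cell held 23 of the 25 Serpinb2 UMIs. The library labelled KO had 7 Mmp12 and 2 Mmp13 UMIs there, for each gene all in 1 cell. Mmp12 and Mmp8 lay below the levels of WT empty droplets in WT. Mmp14 (81.8 and 43.9 CPM) and Spp1 (2507 and 1026 CPM) stayed lower in the library labelled KO without the highest cell of each library. The Ear2 Mgl2 value of Spp1 rests on 1 cell with 276 of 365 UMIs in the library labelled KO: it was at 450 and 677 CPM with all cells and at 342 and 170 CPM without the highest cell of each library. In the remaining C1q-low cells 3 of 9 were lower and 1 higher (9.91% and 9.18%). In neutrophils 3 of 6 were lower and 2 higher (40.6% and 29.8%), a comparison that rests on 12 cells of the library labelled KO.

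Genes whose levels followed a described gene were sought over 14 points by Pearson correlation of log2(CPM + 10). A point was the sum of a monocyte, macrophage or neutrophil gate in 1 library with at least 30 cells there, so that interferon-high monocytes gave a point in the library labelled KO alone and neutrophils in WT alone. The points share 2 libraries and their depths, and the genes named were picked as the highest values over many genes, so the values are descriptions. The highest Mmp12 point, the WT Ear2 Mgl2 gate, had 492 of its 688 UMIs in 1 cell. For Serpinb2 the WT Arg1 gate stood at 113 CPM and the next highest point at 24.4 CPM. For Mmp13 these were 185 and 55.0 CPM. How far such a single point sets the correlations was not tested. The 3 most like Mmp12 were the glycolytic genes Pgam1 (0.90), Eno1 (0.89) and Gpi1 (0.89), and those most like Mmp13 were Bsg (0.85), Gapdh (0.83) and Pkm (0.83). Mmp8 was most like Bnip3l (0.93), Prdx6 (0.92) and Igsf6 (0.88), and Inhba most like Prdx6 (0.91), Cflar (0.90) and Mapk6 (0.89). Serpinb2 was most like Eif4ebp1 (0.80), Zmiz1 (0.78) and Odc1 (0.78). Mmp14 followed Sdc4 (0.92), Snx30 (0.91) and Epb41l2 (0.90), and Thbs1 followed Rbms1 (0.91), Hif1a (0.86) and Ddx17 (0.83). Fn1 followed Dpep2 (0.93), Ccl9 (0.92) and Lrpap1 (0.91), and Spp1 followed Galnt6 (0.95), Lhfpl2 (0.91) and Fam20c (0.89).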

How the data were processed

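Leukocytes of B16 tumours were measured in 1 RNA library per genotype. The authors deposited raw counts, UMIs per gene and barcode, and the file headers name Cell Ranger 3.1.0. The submitters' processing notes name mm10 and, without saying for what, Seurat 3.2.0 and R 3.6.1. The 2 T cell receptor libraries were not used here.

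The 10 genes, the 8 pathway lists, the markers and the gates were chosen with earlier results of these data known. Cells were barcodes with at least 1000 UMIs, 500 genes and at most 10% mitochondrial UMIs. Each cell went to the first gate it met on raw marker UMIs. C1q-high meant C1qa, C1qb and C1qc at 0.2% of UMIs or more, and 57 of 1407 WT cells (4.05%) and 69 of 1083 in the library labelled KO (6.37%) lay within 25% of that limit. Neutrophils had S100a8 and S100a9 at 1% of UMIs or more. The Arg1 cells outside the gates, with at least 2 Arg1 UMIs, were added after seeing the data. Doublets were kept, and an alternative removed 153 and 82 cells by score.

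UMIs were summed per library and gate. CPM has exact Poisson intervals, log2 ratios the exact conditional binomial interval and shares exact Clopper-Pearson intervals, all at 95%. PCR copies are collapsed by UMI, and intervals and floors cover counting error only. The floor for 0 was 3 UMIs. List genes needed 20 UMIs over both libraries, and 1.5-fold is a rule of size. From each list the text names partner genes of the described genes and, among genes with at least 50 UMIs, up to 3 with the highest and 3 with the lowest interval bound nearest 0. Genes like a described gene needed 500 UMIs, and the described gene 200. The value of 1 listed gene is not reported here. The calculation of the ratios was run on Poisson counts simulated from 1 pooled profile with known folds. Such counts lack the spread between cells seen here, so this checks the calculation and not the ratios of these data. Promoter sequences and coordinates are from RefSeq (GRCm38.p6). Python 3.11.15, numpy 2.4.6, scipy 1.17.1 and scikit-learn 1.9.0 were used.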

Additional observations from a re-analysis of the deposited data

Results flagged for a closer look

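For 7 genes the log2 ratio, library labelled KO to WT, was positive in 1 gate and negative in another; with 1 library per genotype these differences between gates were not tested. Mmp12 was at 1.61 in interferon-low monocytes and -2.98 in Ccl8 Cbr2 macrophages. Mmp13 was at 1.70 and -3.08 in the same gates. For both genes the positive value rests mainly on 1 cell of the library labelled KO, with 11 of 14 and 13 of 13 UMIs. For the negative values that library had 7 and 2 UMIs, for each gene all in 1 cell. Inhba was at 1.32 in interferon-low monocytes and -2.74 in Arg1 C1q-low macrophages, and Spp1 at 1.94 in interferon-low monocytes and -1.19 in Ccl8 Cbr2 macrophages. The positive Inhba value rests on 14 and 20 UMIs, with 10 of the 20 in 1 cell, and was 0.97 without the highest cell of each library. Mmp14 was at 1.69 in interferon-high monocytes, where WT had 4 UMIs, and -0.76 in Ccl8 Cbr2 macrophages. Thbs1 was at 1.69 in Ear2 Mgl2 macrophages and -0.56 in interferon-high monocytes. In the Ear2 Mgl2 gate 1 cell of the library labelled KO held 98 of 205 UMIs. The ratio there was 1.60 without the highest cell of each library. In the interferon-high monocytes 1 WT cell held 53 of 98 UMIs, and the ratio was 0.10 without the highest cell of each library. Fn1 was at 1.37 in Ccl8 Cbr2 macrophages and -0.29 in Ear2 Mgl2 macrophages.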

How the results depend on the processing

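No paired analysis was possible because each genotype had 1 library. Values are log2 ratios over all monocytes and macrophages unless a gate is named. The count of lower genes was 6 or 7 of 10 under every alternative run, with 7 when gates were set on thinned cells and when all ungated cells were added; under haemoglobin-based subtraction the 6 include Mmp9, which had nothing left in the library labelled KO and so no ratio. With gates set after thinning cells to 2000 UMIs, Mmp12 was at -1.51, Mmp13 -0.78, Mmp14 0.075, Inhba -1.66, Thbs1 0.39, Serpinb2 -2.33, Fn1 0.27 and Spp1 -0.63. With equal gate weights Mmp12 was at -1.26, Thbs1 0.29, Fn1 0.44 and Spp1 -0.36. With equal weight for each cell Mmp12 was at -1.13, Thbs1 0.054, Fn1 0.30 and Spp1 -0.34, and 17 pathway genes were lower. With free RNA subtracted by haemoglobin, Mmp12 was at -1.02, Mmp13 -1.04, Mmp14 0.39, Thbs1 0.62, Serpinb2 -6.14, Fn1 0.81 and Spp1 0.011, the other sign, with 2 described genes higher and 18 pathway genes lower and 14 higher. That estimate, 39.5% of UMIs in the library labelled KO, rests on 9 UMIs in T or NK cells and 24 in empty droplets, and it gave no value for Mmp9; an estimate from S100a8 and S100a9, added after seeing the data, was 9.41% and 5.92% and gave Spp1 -0.52. At most 5% mitochondrial UMIs gave Fn1 0.35, and a list minimum of 50 UMIs left 7 lower pathway genes.

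Further alternatives added after seeing the data were these. Adding the Arg1 cells outside the gates gave Inhba -2.60 and Thbs1 0.038. Adding all ungated cells gave Inhba -2.71, Thbs1 -0.076, the other sign, Spp1 -0.60 and 10 higher pathway genes. Leaving out the C1q-low cells outside the named gates gave Thbs1 0.31, Fn1 0.34 and Spp1 -0.52. With equal gate weights, a C1q limit of 0.1% gave Mmp12 -1.26, Thbs1 0.32 and Spp1 -0.39, and a limit of 0.4% gave Spp1 -0.34.

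A C1q limit of 0.4% gave, in the C1q-high gate, Mmp12 -0.14, Mmp13 -0.18, Inhba -0.026, Fn1 0.34 and Spp1 -0.13, and in the Arg1 gate Mmp12 -1.69 and Spp1 -0.65. A limit of 0.1% gave Thbs1 0.43 and Spp1 -0.17 in the C1q-high gate and Thbs1 0.20 and Spp1 -0.79 in the Arg1 gate. The lower Mmp12, Mmp13 and Inhba of the C1q-high gate thus depend on where that limit lies. With S100a8 and S100a9 at 3% of UMIs or more, WT neutrophils held Spp1 at 415 CPM and Inhba at 56.0 CPM. The causes of these shifts were not tested. Depth limits Serpinb2, Mmp9 and Mmp8 in the library labelled KO, which rest on 20, 8 and 65 UMIs.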
